A study of Mus musculus with 2 samples.

Results

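Iron uptake, storage and export were followed through 10 genes in mouse hippocampal cultures with and without TTX (tetrodotoxin), which closes voltage-gated sodium channels and so silences spiking. The members are the transferrin receptor Tfrc, the importer Slc11a2, the exporter Slc40a1, the ferritin subunits Fth1 and Ftl1, the iron regulatory proteins Aco1 and Ireb2, the reductase Steap3 and the ferroxidases Heph and Cp. They were taken by gene name from the array annotation, which gave 18 of the 55679 probes. The group was chosen by the signal of Tfrc, about 2-fold lower in the TTX culture, so the value of Tfrc is a description and not a finding of its own. Of the 10 genes, 9 were measured, meaning well above background on both arrays at 1 or more probes, out of 14016 measured genes in all, and Heph was not.

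The control array held RNA from dissociated hippocampal cells of ICR mouse embryos (embryonic day 16.5) at 12 days in vitro, and the TTX array held RNA from a culture of the same kind and age that spent its last 2 days in TTX. Both cultures grew in 5.5% fetal bovine serum, itself a source of transferrin-bound iron, and received 5 µM Ara-C against dividing glia from day 2 after plating. The labels disagree on the dose of TTX, which the design text gives as 2 µM and the sample's own source name as 2 mM. With 1 array for each condition, no difference has a replicate check and no test between conditions was possible, and this small number limits the precision of every value. How many animals or dishes gave the RNA is not stated in the sources used here.

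Most cells take up iron bound to transferrin, which docks on the transferrin receptor and is carried into endosomes. There iron is released, reduced by STEAP3 and passed into the cytosol by the divalent metal transporter DMT1, the product of Slc11a2. Cytosolic iron that is not used is stored in ferritin, a shell of heavy and light chains, and leaves the cell mainly through ferroportin, the product of Slc40a1, with the help of a multicopper ferroxidase. When cytosolic iron is scarce, the iron regulatory proteins IRP1 (Aco1) and IRP2 (Ireb2) bind hairpins in the messages, which protects Tfrc mRNA from decay and blocks translation of ferritin. A change in translation alone leaves mRNA, which is what the arrays measured, unchanged. Neurons depend mainly on the transferrin receptor for iron, while ceruloplasmin (Cp) in the brain is known chiefly from astrocytes.

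Tfrc had 3 probes of 60 bases at different places on the same transcript, and the sequences of the pair that start at positions 1228 and 1732 are shown because they let the lower signal be read away from the message's 3′ end. Positions are those in the array annotation, counted along the transcript, and the sequences are given 5′ to 3′ in the sense of the mRNA, in lower case throughout.
Tfrc, position 1228, chr16:32620470-32620529 (mm9, plus strand): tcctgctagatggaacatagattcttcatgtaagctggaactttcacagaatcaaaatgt
Tfrc, position 1732, chr16:32624877-32625093 (mm9, plus strand): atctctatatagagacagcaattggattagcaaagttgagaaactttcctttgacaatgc

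Both lie well upstream of the third probe, and each can be read through without a stop codon in 1 or more frames. The probe at position 1732 spans 217 bases of the genome and so crosses an intron of 157 bases. The probe at position 4288, chr16:32632255-32632314, lies towards the 3′ end and has a stop codon in each of its 3 reading frames. The 3 probes are alike in base composition, with a GC content of 36.7%, 35.0% and 35.0%.

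The transferrin receptor message was lower in the TTX culture at each of the 3 probes. The probe at position 4288 was printed as 10 spots on each array, in rows from 12 to 362 of 384. Its spots read 1606 to 1975 on the control array, with a median of 1891, and 775 to 879 on the TTX array, with a median of 801. The lowest control spot was therefore above the highest TTX spot. The log2 difference, TTX minus control, was -1.20 ± 0.09 (SD over 10 spots of 1 array pair), and single spots ranged from -1.30 to -1.00. On the linear scale the TTX signal was 43.7% of control. The SD covers printing and hybridization within this pair of arrays and says nothing of the spread between cultures.

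The coding probe at position 1228 gave signals of 978 in control and 429 in TTX, a log2 difference of -1.19. That is close to the value at the 3′ end. The intron-crossing probe at position 1732 had a signal of 53.3 in control and 17.0 in TTX, where it was not well above background. It therefore has only a bound, at least 2.71-fold lower in TTX, taken against 19.7, the dimmest signal that still counted as well above background on the TTX array. Some probes of other genes read above 19.7 there without being well above background, so the bound rests on that choice. With normexp background correction, whose offset shrinks the differences of dim probes, this probe was at -0.60. No probe of Tfrc was level or higher in TTX.

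**Figure D1:**
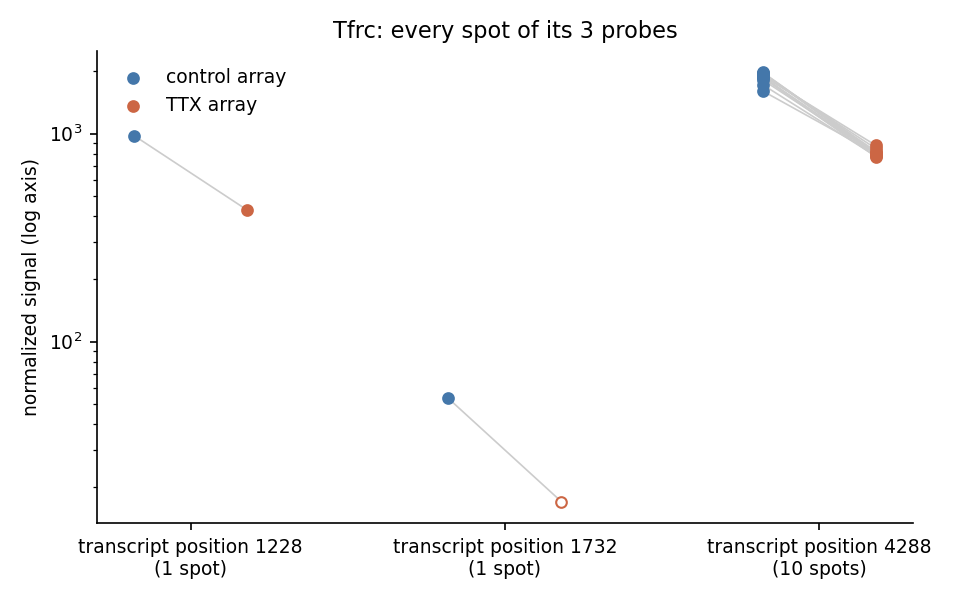
Normalized signal (log axis) of every Tfrc spot on the control array (blue) and the TTX array (orange), with grey lines joining the same spot on both; the open circle was not well above background. All 12 pairs slope down, and the 10 spots of the probe at position 4288 lie at 1606 to 1975 on control and at 775 to 879 on TTX.

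At the size rule of 2-fold, Tfrc was 1 of 476 measured genes that were lower in TTX, which is 3.40% of 14016, while 2.09% were at least 2-fold higher. It ranked 319th from the lowest, so 2.28% of genes were at least as low. Because the group was built around Tfrc, its count of 1 lower gene in 9 is not to be read against that 3.40%. Tfrc is also used as a reference gene for normalizing expression. Among 14 other reference genes, the median was -0.06 and none passed 2-fold as reported. Hprt was the nearest to Tfrc, with signals of 12881 and 6659 (-0.95), and it did pass 2-fold at -1.09 with 75th percentile scaling, -1.15 with spike-in scaling and -1.10 with no normalization. B2m was at 0.50 and Pgk1 at -0.25, and the 3 probes of Rpl13a ran from -0.28 to 0.30, the brightest being the highest.

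The other 8 measured iron genes all lay within 1.5-fold of control, with log2 differences from -0.41 to 0.28, where 83.7% of all measured genes did so and 16.3% did not (8.64% lower and 7.66% higher). Their median was -0.06, against 0.01 for all genes, and 5 were below 0 and 3 above, where 48.8% of all genes were below 0. The gene nearest to Tfrc from outside the 2-fold rule was Aco1, at -0.41. The lower signal of Tfrc therefore stood alone among the members at their brightest probes. The gap from Tfrc to Aco1 was wider than the whole range of the other 8, but Tfrc was the reason the group was chosen.

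**Figure D2:**
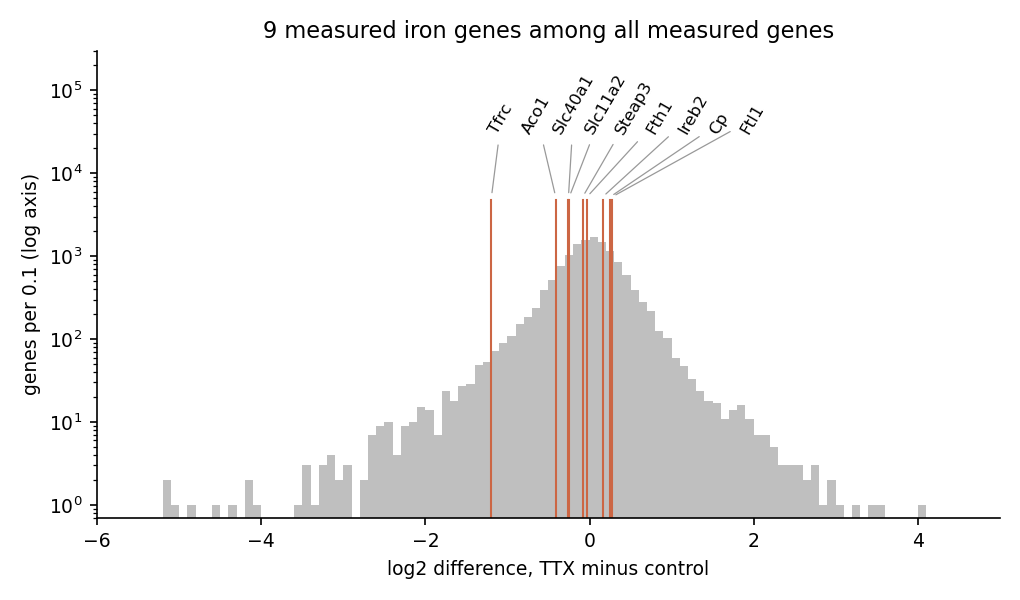
Number of measured genes (log axis) by log2 difference, TTX minus control, in steps of 0.1, with the 9 measured iron genes as orange lines. Tfrc at -1.20 sits in the lower flank, and the other 8, from -0.41 to 0.28, sit in the central peak.

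The importer downstream of the receptor was lower by less. Slc11a2, which encodes DMT1, had 2 probes. At position 2961 (chr15:100218333-100218392, mm9, minus strand) its signals were 212 in control and 179 in TTX, a log2 difference of -0.25. At position 253 they were 56.7 and 35.2, a difference of -0.69. The Feature Extraction software gives each spot an error from its own error model, and over both arrays this comes to 0.21 for the first difference and 0.29 for the second. The same error for Tfrc was 0.20 at position 4288, as a mean over its spots, and 0.20 at position 1228. Both probes of Slc11a2 were lower in TTX. The probe at position 253 was dim and lay in rows 289 to 336, where 4.93% of dim probes were at least 2-fold lower, and the part of this in its value was not tested. The array annotation ties the first probe to 1 RefSeq transcript of Slc11a2 and the second to 2, and its sequence is shown because the larger difference rests on it.
Slc11a2, position 253, chr15:100240516-100240575 (mm9, minus strand): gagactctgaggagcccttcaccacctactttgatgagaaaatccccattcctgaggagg

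The endosomal reductase Steap3 was close to level at its brighter probe and lower at its dim one. At position 2817 the signals were 193 and 182, a log2 difference of -0.08 with an error of 0.21. At position 1792 they were 32.9 in control and 16.1 in TTX, where the probe was not well above background, so it was at least 1.68-fold lower there. With normexp correction this probe was at -0.22. The probes thus disagreed in size, and the dim one is printed for that reason.
Steap3, position 1792, chr1:122124269-122124328 (mm9, minus strand): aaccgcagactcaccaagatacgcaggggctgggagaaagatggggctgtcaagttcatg

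Ferritin messages were near level. Fth1, the heavy chain that oxidizes iron on entry, had signals of 125966 in control and 123380 in TTX at its 1 probe, position 768 (chr19:10059485-10059544, mm9), a log2 difference of -0.03. That value was above 0 with scaling to the 75th percentile and with no normalization, at most 0.01. Ftl1, the light chain that helps to lay down the iron core, was slightly higher at both probes. At position 915 it read 44054 and 53368, a difference of 0.28, and at position 462 it read 8473 and 10398, a difference of 0.30. Each of these has an error of 0.20. With spike-in scaling the value at position 462 was 0.09, with no normalization 0.14 and with 75th percentile scaling 0.15. The probe at position 462 crosses an intron of 422 bases. Ferritin genes have many near-identical processed copies in the mouse genome, so a share of the signal may come from copies, and the signals of these 3 probes cannot be assigned to 1 locus.

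The iron regulatory proteins lay on either side of control. Aco1, which is the cytosolic aconitase IRP1 when it carries an iron-sulphur cluster and an RNA-binding protein when it does not, had signals of 219 in control and 164 in TTX at position 4056 (chr4:40145780-40145839, mm9). The log2 difference was -0.41, with an error of 0.21, and 27.8% of all measured genes were at least as far from 0. Ireb2, which encodes IRP2, read 38.9 and 43.6 at position 2735 (chr9:54756566-54756625, mm9), a difference of 0.16 with an error of 0.28. Ireb2 was among the dimmest 20% of measured probes. Its spot lay in row 180, in a block of rows (145 to 192) where the median dim probe was itself at 0.07, against -0.06 in rows 337 to 384. The part of this in the value of Ireb2 was not tested.

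The exporter and its ferroxidases were also near control. Slc40a1, which encodes ferroportin, read 154 in control and 129 in TTX at position 2980 (chr1:45965255-45965314, mm9, minus strand), a log2 difference of -0.26 with an error of 0.21. Cp had signals of 329 and 392 at position 3251 (chr3:19889071-19889130, mm9), a difference of 0.25 with an error of 0.21. Its other probe, at position 4465 of another transcript, read 10.3 and 15.9 and was not well above background on either array. Heph, known best from the gut and from oligodendrocytes, had 3 probes that read from 4.60 to 14.1 on control and from 5.28 to 11.4 on TTX. None was well above background on either array, so no difference is given for Heph.

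**Figure D3:**
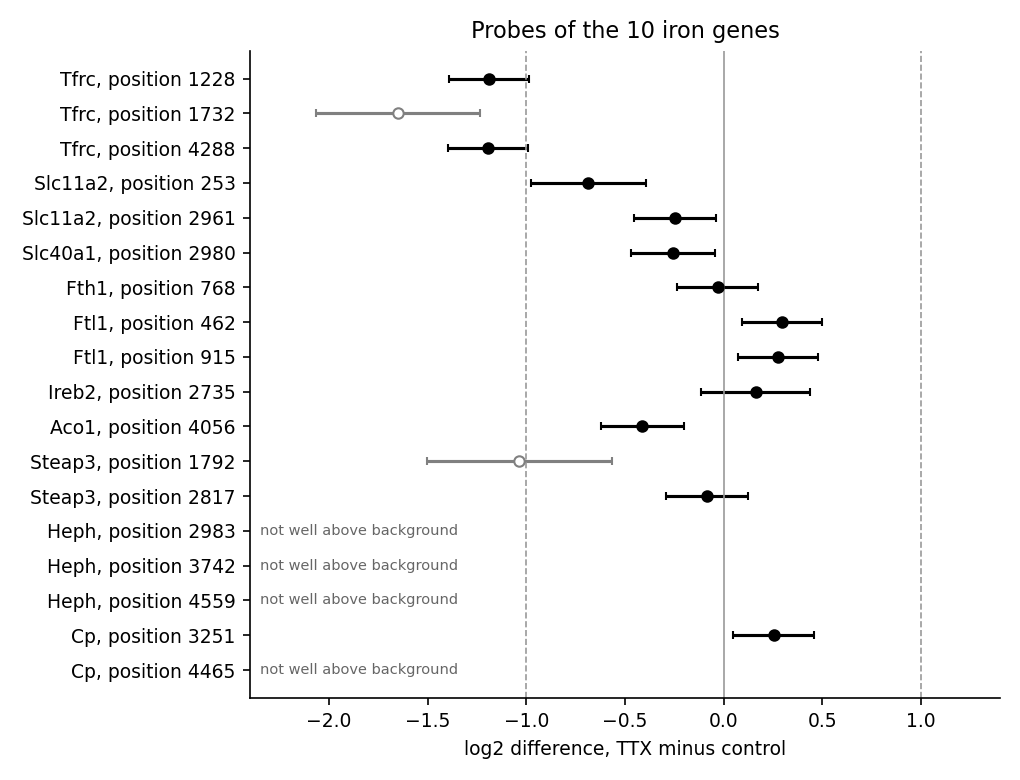
Log2 difference, TTX minus control, at probes of the 10 iron genes, with all 18 labelled by transcript position. Probes not well above background on either array are marked in words and have no point. Bars are the Feature Extraction error, open circles were not well above background on the TTX array, and dashed lines mark 2-fold. Filled points past the 2-fold line are those of Tfrc at positions 1228 and 4288.

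In order of the log2 difference the members ran Tfrc, Aco1, Slc40a1, Slc11a2, Steap3, Fth1, Ireb2, Cp and Ftl1. Neighbours from Aco1 onwards differed by less than the errors of single probes, so their order is not resolved by these arrays. Tfrc lay farther from Aco1 than the error of any measured probe. The group was chosen for the lower signal of Tfrc, however, and these errors do not cover the spread between cultures. The distance is therefore a description. Under the 8 other processing settings tried for it, Tfrc lay between -1.35 and -1.15, Slc11a2 between -0.47 and -0.17, Aco1 between -0.43 and -0.29, and Ftl1 between 0.18 and 0.29. Fth1 was the only member whose sign changed.

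**Figure D4:**
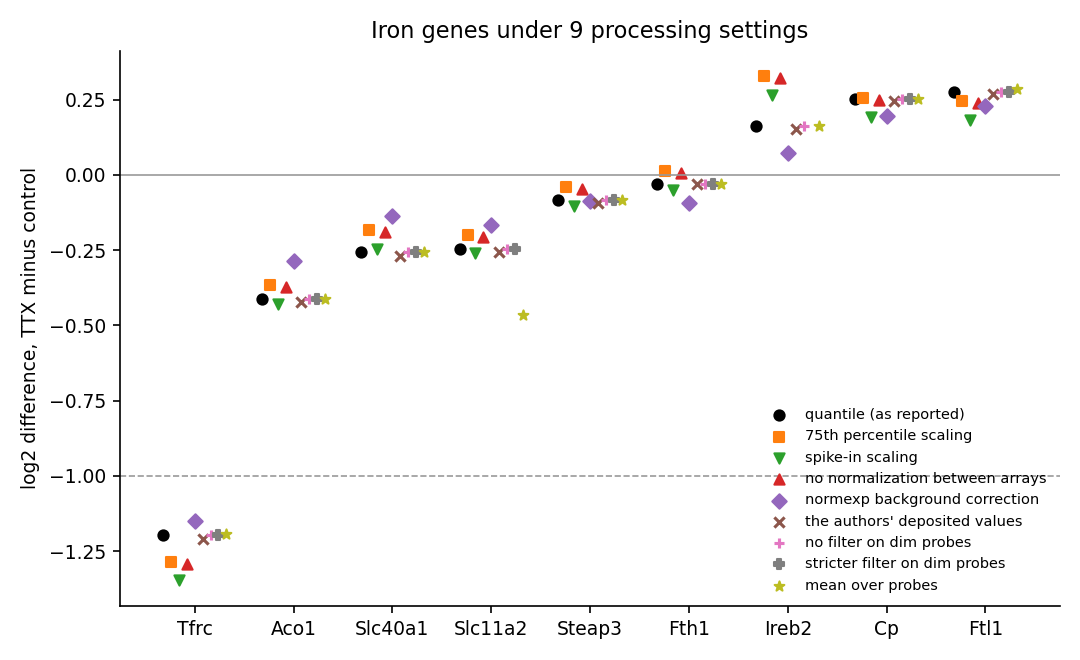
Log2 difference, TTX minus control, of the 9 measured iron genes under 9 processing settings (symbols), the reported one in black; the dashed line marks 2-fold lower. Tfrc stays between -1.35 and -1.15, and the other genes stay at -0.47 or higher.

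Beyond the members, 7 lists of iron and haem genes held 89 further genes on the array, of which 77 were measured. Of these, 1 was at least 2-fold lower and 1 at least 2-fold higher (1.30% each, against 3.40% and 2.09% of all genes), and 92.2% lay within 1.5-fold of control. Their median was 0.03, with 35 below 0 and 42 above.

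Other uptake genes had a median of 0.19 over 10 measured of 14, with 6 above 0. Transferrin itself (Trf) read 180 and 205 (0.19) at its brighter probe and was at -0.12 at the other. The second transferrin receptor Tfr2 was at -0.02, and the iron and zinc importer Slc39a14 was at -0.15. The highest were the ferrireductases Cybrd1 (35.9 and 72.4, 1.01) and Steap2 (39.2 and 69.0, 0.82) and the related Steap1 (31.2 and 44.5, 0.51). The endocytic receptor Lrp1 (0.45) came next. Cybrd1, Steap2 and Steap1 were dim, and with the stricter filter on dim probes the median of the list was -0.01. With normexp correction Cybrd1 was at 0.52 and did not pass 2-fold, and in the authors' deposited values it was just under 2-fold. Its spot was in row 49, and in rows 49 to 96 of the array 6.88% of dim probes were at least 2-fold higher in TTX, against 2.67% in rows 337 to 384.

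Genes that carry the receptor through endosomes were near level, with a median of 0.02 over 10 measured, from -0.19 for Exoc6 to 0.41 for the clathrin adaptor Picalm. Rab4a, a GTPase of recycling endosomes, was at 0.21 and the endosomal iron channel Mcoln1 at 0.20, and both were just below 0 with spike-in scaling. The median was -0.14 with spike-in scaling and below 0 also with 75th percentile scaling and no normalization. Ferritin handling genes had a median of 0.14 over 5 measured of 6, which was -0.03 with spike-in scaling. The ferritin autophagy receptor Ncoa4 was at 0.14, and the iron chaperones Pcbp1 and Pcbp2 were at 0.01 and 0.23, the dimmer probe of Pcbp2 being at 0.00. Bola2 and Glrx3, partners in iron-sulphur transfer, were at 0.23 and -0.23. In the list on turnover of iron regulatory proteins and of Tfrc mRNA, 6 of 7 were measured, with a median of 0.08 that was -0.05 with spike-in scaling. Fbxl5, the iron-sensing ligase subunit that marks IRP2 for breakdown, was at 0.06. Of the ligase scaffold, Cul1 was at -0.19 and Rbx1 at 0.10. The mRNA-decay protein Rc3h2 was at 0.39 and Rc3h1 at 0.20, but the other probe of Rc3h1 was at -0.13 and the mean of its probes at 0.03, and Zc3h12a was not measured.

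Mitochondrial iron and iron-sulphur genes had a median of -0.06 over 24 measured, with 14 below 0 and none past 2-fold. The mitochondrial iron importer Slc25a37 was the lowest, from 670 to 431 (-0.64), and its paralog Slc25a28 was at 0.17. Fdxr (0.49), Mms19 (0.45) and Bola3 (-0.38) came next in size. Haem genes had a median of 0.06 over 17 measured of 19, below 0 under 3 of 5 other scalings or corrections, and none passed 2-fold. Ppox (0.45), the haem-degrading Hmox1 (940 and 1255, 0.42), the haem transporter Slc48a1 (-0.32) and Alad (0.30) were the farthest from 0 at their brightest probes. The first enzyme of synthesis, Alas1, was at -0.12 at its brighter probe and at -0.61 at the other.

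In the list on other iron export and the hepcidin axis, 5 of 9 genes were measured. Hepcidin itself (Hamp and Hamp2), Hephl1 and Tmprss6 were not. Bmp2, a ligand that can induce hepcidin in liver and has many other roles, was the gene past 2-fold, with signals of 228 and 40.8 (-2.48), and at -1.45 with normexp correction. Smad6 (0.94, and 1.05 with 75th percentile scaling or no normalization), the dim Bmp6 (0.75) and Id1 (0.47) were higher, so the genes of this list lay on both sides of 0. With normexp correction Smad6 was at 0.57 and Bmp6 at 0.38, and neither had a value under the stricter filter on dim probes. The median of the list was 0.47, and -0.32 under that filter.

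**Figure D5:**
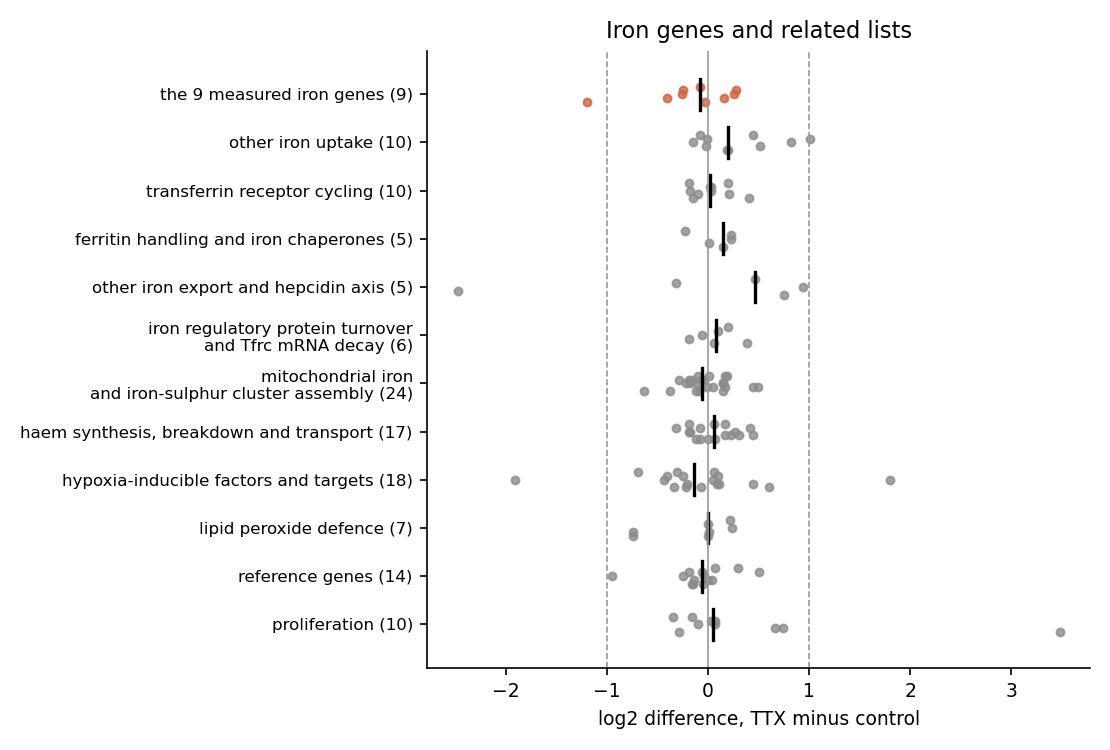
Log2 difference, TTX minus control, of the 9 measured iron genes (orange) and of each measured gene in 11 related lists (grey, number measured in brackets); black bars are medians and dashed lines mark 2-fold. Most list medians lie within 0.2 of 0, and Tfrc, Bmp2, Ankrd37, Ndrg1 and Mki67 lie well outside the dashed lines.

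Tfrc is also known as a target of hypoxia-inducible factors and as a marker of dividing cells. Hypoxia factors and targets had a median of -0.14 over 18 measured, with 10 below 0 and 8 above. Ankrd37 was lower (535 and 142, -1.91) and Ndrg1 was higher (588 and 2047, 1.80). The differences of Bnip3 (-0.70), Pdk1 (0.60), Vhl (0.45), Vegfa (-0.44) and Slc2a1 (-0.40) were smaller. Proliferation genes had a median of 0.05 over 10 measured of 15, below 0 under 3 of 5 other scalings or corrections. Mki67 was the gene past 2-fold (31.6 and 352, 3.48), and it was at 2.13 with normexp correction. Tyms (0.74) and Ccna2 (0.66) were dim, and Mcm5 was at -0.34. Of the 5 genes not measured, Ccnb1 had a probe well above background on control only (57.6 and 7.32), at least 2.93-fold lower in TTX. Its other probes were not well above background on either array (8.10 and 3.70, 4.44 and 5.08). The first probe lay in row 384, and in rows 337 to 384 5.50% of measured dim probes were at least 2-fold lower. The part of this in its value was not tested. In the list labelled lipid peroxide defence, 7 genes were measured. The lowest were Lpcat3 (-0.75) and Acsl4 (-0.74), which are lipid-synthesis genes and not defence genes themselves. Nfe2l2 (0.24) and Gclm (0.22) were the highest, and Gpx4 was at 0.00.

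Start-site sequence was held for 7 of the 10 members in the RefSeq table of GRCm38.p6, as 13 windows of 300 bases, and Tfrc is shown because it is the member that differed. Its first start site is given from 100 bases before to 30 after, with capitals for the hypoxia response core ACGTG and the CRE core TGACG, the core of the site bound by the activity-regulated factor CREB.
Tfrc, chr16:32608796-32608925 (GRCm38.p6, plus strand): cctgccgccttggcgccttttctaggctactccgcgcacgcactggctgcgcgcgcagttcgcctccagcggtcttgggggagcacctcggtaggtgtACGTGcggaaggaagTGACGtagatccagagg

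In the stretch shown, ACGTG begins at base -2 from the start site and so spans it, and TGACG begins at base 14. Searched on both strands, ACGTG was present in 19.6% of all 32851 windows and in 2 of the 13 member windows, those of Tfrc only. TGACG was present in 20.8% of all windows and in 3 of the 13, from Tfrc and Fth1. The GC box GGGCGG was in 35.7% of all windows and in 7 of the 13, from Tfrc, Fth1, Ftl1, Ireb2, Aco1 and Steap3. The full CRE, TGACGTCA, and the E-box CACGTG, which contains ACGTG, were in 1.79% and 7.15% of all windows and in none of the members'. A match is a description of letters and shows no binding.

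The arrays had signals well above background at 54.2% of spots on control and 52.2% on TTX, and no spot was saturated. Neuron markers were all measured, 15 of 15, with a median of -0.27 (-0.41 with spike-in scaling), 10 below 0 and 5 above, and summed signals of 320648 on control and 286748 on TTX. The lowest were Nefm (-1.20), Nefh (-0.98, and past 2-fold under 4 other settings) and Rbfox3 (-0.81), and the highest were Slc17a6 (0.74), Tubb3 (0.47) and Map2 (0.35).

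Astrocyte markers had a median of 0.40, with 9 of 11 above 0, where 7166 of all 14016 measured genes were above 0. Their summed signals were 53227 and 63934, and Gja1 was not measured. Most of both sums was Aldoc alone, with signals of 38706 and 44061. Gfap (0.78, with probes from 0.38 to 0.78), Sox9 (0.56) and Mlc1 (0.55) were higher. The marker past 2-fold was lower, namely the glutamate transporter Slc1a2 (1794 and 867, -1.05), whose 3 probes ran from -1.29 to -1.05 and which was at -0.99 with normexp correction. Cp, known from astrocytes, was higher by 0.25 beside these values, and their part in it was not tested.

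Microglia markers had a median of 0.26 (8 of 12 measured, sums of 19349 and 21485, without Cx3cr1, P2ry12, Tmem119 and Ptprc). Most of both sums was Itgam alone, with signals of 18172.5 and 20323. Of the measured markers, 6 were above 0, among them Tyrobp (0.60), C1qb (0.39), C1qa (0.36) and the dim Laptm5. Laptm5 was at 0.89, 1.04 with 75th percentile scaling and 0.27 with normexp correction. The 2 below 0 were Csf1r (-0.36, with probes from -1.08 to 0.27) and Aif1 (-0.05). Oligodendrocyte markers had a median of 0.20 (6 of 12 measured, sums of 2120 and 2516, without Mag, Mobp, Olig2, Sox10, Pdgfra and Enpp6), with Olig1 at 0.78, Cspg4 at 0.52, Cnp at 0.39 and Mog at -0.18. Fibroblast and mural markers had a median of 0.25 (9 of 10, sums of 3448 and 4609, without Lum), led by Fbln1 (109 and 567, 2.38), Acta2 (0.53), Dcn (0.33) and Col1a1 (0.28). Endothelial markers had a median of -0.21 (5 of 10, sums of 2627 and 2227, without Cdh5, Cldn5, Tek, Emcn and Vwf), with Ocln at -0.55, Kdr at -0.24, Pecam1 at -0.21 and Flt1 at -0.11, and the probes of Kdr and of Flt1 lay on both sides of 0. Choroid plexus markers had a median of 0.32 (4 of 8, sums of 380 and 442, without Kl, Aqp1, Kcne2 and Clic6), with Folr1 at 0.34 and Otx2 at 0.30. The dim Ttr (1.01) and Prlr (-1.22) passed 2-fold there, and with normexp correction they were at 0.49 and -0.53. In such mixed cultures, fewer cells of a type and less RNA per cell cannot be told apart, for Tfrc as for any member.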

How the data were processed

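The data were 2 Cy3 single-colour Agilent 8x60K arrays, 1 control and 1 TTX. Each deposited scanner file gives linear intensity per spot, with background subtracted and spatial trends removed, per the file headers. Feature Extraction is 10.7.1.1 per the file headers and 9.5.1.1 per the submitters' processing notes. The deposited value table also holds intensity, for which the design text states that the arrays were quantile normalized; its differences correlated with those computed here at 1.00 over 27398 probes.

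Non-control spots (59305) without outlier marks (131 marked on control, 170 on TTX) were quantile normalized, put on a log2 scale and averaged per probe. Probes counted as measured when a share of 0.5 or more of their spots stood well above background, on control and on TTX alike, and each gene was represented by the brightest of them. Genes were named through a RefSeq table of GRCm38.p6, used for names and start-site windows only; 30847 probes had a name and 24832 none. Probe coordinates are mm9, per the file headers. With 1 array a group there was no test, and 2-fold served as the size rule. All members were named, and of each list every gene past 2-fold and the 4 largest. A few others are named for their role or their value. Members and lists were chosen with earlier results of these data known. Over 222 measured probes with 9 or 10 spots, the pooled SD of a spot difference was 0.15. Alternatives covered normalization (including 7 spike-in probes, with a median difference of 0.06), background correction, filters, the averaging of probes and the fold. The steps were tested on simulated data. Python 3.11.15, pandas 2.3.3, R 4.3.3 and limma 3.58.1 were used.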

Additional observations from a re-analysis of the deposited data

How the results depend on the processing

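A value is said to move when it shifts by more than 0.15, the pooled spot SD, and a count when it changes by more than 1.5 times. No value past 2-fold changed sign. Tfrc was at -1.35 with spike-in scaling, which lowered the median of all genes to -0.09. Slc11a2 was at -0.47 when its probes were averaged, and Ireb2 was at 0.33 under 75th percentile scaling and 0.32 without normalization. Counts of genes at least 2-fold lower and higher were 301 and 147 after normexp correction, 1368 and 1062 when dim probes were kept, 1211 and 1073 at 1.5-fold, and 163 and 94 at 3-fold, under which 0 iron genes were lower. Spike-in scaling gave list medians of -0.14 for transferrin receptor cycling, -0.025 for ferritin handling, -0.22 for mitochondrial iron and -0.11 for proliferation. The stricter filter, which leaves fewer genes, gave -0.013 for other uptake, -0.32 for the hepcidin axis, 0.11 for microglia and 0.019 for oligodendrocytes. With no filter the hepcidin axis was at 0.064, oligodendrocytes at 0.0023 and endothelial markers at 0.0072. Endothelial markers were at -0.049 under 75th percentile scaling, -0.055 unnormalized and 0.00 when probes were averaged. Beyond what the settings' construction shows, the cause was not tested. Of the other values, for named list genes, 70 of 559 moved. Ireb2 had no value under the stricter filter, and Heph none in any measured set. No paired analysis was possible because each group had 1 array and the labels carry no replicate numbers. Signal over background limits what can be said of Heph, Ireb2 and the dim probes of Tfrc and Steap3.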
